A study of Mus musculus with 8 samples.

Results

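The widest promoters of protein-coding genes in mouse embryonic stem cells (mESCs) were examined by CAGE-seq, which reads the capped 5′ ends of RNA and so places transcription start sites (TSSs) at single bases. Members were chosen by their width in wild-type cells: an E14 tag cluster was kept when its dominant TSS, the base with the highest signal, lay within 500 bp of the 5′-most start of a protein-coding gene on the same strand and its interquantile region was over 50 bp wide. The interquantile region runs from the base where 10% of the cluster's signal has been passed to the base where 90% has been passed. The rule kept 1734 clusters in 1686 genes, out of 13857 coding promoter clusters in 9752 genes and 32857 tag clusters in all. Nuclear RNA was sequenced from E14 wild-type mESCs (3 libraries) and from a pair of knockout clones of E14 that lack both Pwwp2a and Pwwp2b (double knockout, DKO), clone A1 (2 libraries) and clone C7 (3 libraries). All were labelled as undifferentiated embryonic stem cells kept in medium with LIF on gelatine. PWWP2A and PWWP2B are chromatin proteins that bind the histone variant H2A.Z and histone H3 methylated at lysine 36. Each DKO line is 1 clone, and the deposited clusters merge the libraries of a line, so that each line has 1 set of positions, no replicate error and no test. Intervals given below are 95% Wilson intervals over clusters, which cover counting error only.

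Promoters of mammalian genes fall along a range between 2 shapes. Sharp promoters start transcription at 1 or a few neighbouring bases and often hold a TATA box at a fixed distance upstream, which positions the polymerase. Broad promoters start at many bases over a wider stretch, usually lie in CpG islands without a TATA box, and are known for genes used in most cell types. In both shapes single start bases tend to be a purine that follows a pyrimidine, a step known as the initiator.

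The cell type was checked by promoter clusters at marker genes. Of 10 marker genes of embryonic stem cells, 9 had a coding promoter cluster in each line, the exception being Esrrb. Of 10 markers of other cell types, 2 had one in each line (Neurod1 and Cd34). Pwwp2a kept 1 promoter cluster in all 3 lines, of 36 bp in E14 and A1 and 35 bp in C7, and Pwwp2b had none in any line, so start positions did not check the knockout. All scores in the clusters were 0, so neither the signal nor the depth behind a cluster could be read. The outer bounds of matched coding promoter clusters were the same base at both ends in 98.9% of E14 and A1 pairs and 99.5% of E14 and C7 pairs, and whether start sites were filtered or clusters called jointly across the lines is not given in the sources used here. This bears also on the matching of members between lines.

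The shapes behind the numbers can be seen in the sequences. The lines below were taken from RefSeq promoter windows on GRCm38.p6 (the assembly of mm10), 5′ to 3′, with the E14 interquantile region in capitals and 20 bases on either side in lower case. The first 3 are the widest of the 331 members that qualified for printing (the region inside such a window, with the mitochondrial genome and 1 other chromosome left out), namely Fam104a on the minus strand (chr11:113683932-113684127), Cnot8 on the plus strand (chr11:58103982-58104164), which encodes a deadenylase subunit of the CCR4-NOT complex, and Mrps16 on the minus strand (chr14:20393484-20393652), which encodes a protein of the small mitochondrial ribosomal subunit.
Fam104a: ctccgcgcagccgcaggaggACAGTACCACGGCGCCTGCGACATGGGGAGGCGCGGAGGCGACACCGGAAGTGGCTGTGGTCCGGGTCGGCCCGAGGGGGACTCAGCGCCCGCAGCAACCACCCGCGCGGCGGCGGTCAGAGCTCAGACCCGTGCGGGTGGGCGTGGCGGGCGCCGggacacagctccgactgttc
Cnot8: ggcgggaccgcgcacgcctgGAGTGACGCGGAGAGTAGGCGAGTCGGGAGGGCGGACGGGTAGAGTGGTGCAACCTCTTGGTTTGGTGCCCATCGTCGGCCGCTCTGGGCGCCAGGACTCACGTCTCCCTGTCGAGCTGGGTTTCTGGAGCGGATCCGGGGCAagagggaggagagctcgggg
Mrps16: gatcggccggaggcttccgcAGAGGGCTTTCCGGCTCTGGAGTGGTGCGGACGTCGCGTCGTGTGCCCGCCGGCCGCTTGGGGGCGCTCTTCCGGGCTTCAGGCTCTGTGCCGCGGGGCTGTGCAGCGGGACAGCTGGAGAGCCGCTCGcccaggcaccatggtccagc

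The region of Fam104a was 156 bp wide with a GC content of 76.3% and 23 CpG sites, that of Cnot8 was 143 bp with 66.4% GC and 14 CpG sites, and that of Mrps16 was 129 bp with 72.9% GC and 16 CpG sites. Pyrimidine-purine steps occurred 42, 31 and 30 times inside these 3 regions, so each offered many possible initiators. The dominant TSS was base 23 of the Fam104a line (a CA step, with the A as the start), base 131 of the Cnot8 line (TG) and base 133 of the Mrps16 line (CA), counted from the first base printed, and it was the same base in A1 and C7. The dominant TSS of Fam104a thus lay near the 5′ edge of its region, which began at base 21. Those of Cnot8 and Mrps16 lay farther inside, on the 3′ side of regions that ended at bases 163 and 149.

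Glce on the minus strand (chr9:62122589-62122703), which encodes an epimerase of heparan sulfate synthesis, is shown because it had the largest shift of the dominant TSS shared by both clones among those 331 members. The gene 2310022A10Rik on the plus strand (chr7:27553230-27553329) is shown as a member at the median width of 60 bp.
Glce: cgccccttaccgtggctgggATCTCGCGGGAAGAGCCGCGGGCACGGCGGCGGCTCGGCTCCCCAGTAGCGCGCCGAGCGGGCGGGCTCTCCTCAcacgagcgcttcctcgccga
2310022A10Rik: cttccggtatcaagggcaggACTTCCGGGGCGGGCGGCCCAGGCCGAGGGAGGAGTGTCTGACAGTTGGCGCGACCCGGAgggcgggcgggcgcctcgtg

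The region of Glce was 75 bp wide in all 3 lines, yet its dominant TSS was base 21 in E14 (the A of a GA step) and base 95 in both clones (the A of a CA step), which are the first and the last base of the region. The dominant TSS of 2310022A10Rik was base 64 (CA) in all 3 lines.

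For contrast, the narrowest coding promoter that held TATAAA from 40 to 21 bases upstream of its dominant TSS was that of Adamts1, a secreted metalloprotease, on the minus strand (chr16:85803064-85803163). Here the capitals mark the TATAAA and the single start base, and 50 bases upstream of that base are shown.
Adamts1: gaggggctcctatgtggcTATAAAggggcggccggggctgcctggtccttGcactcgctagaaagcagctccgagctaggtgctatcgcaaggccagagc
Its TATAAA began 32 bases before the start base, and the region was 1 bp wide in E14, A1 and C7.

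Interquantile widths of the 1734 members in E14 ran from 51 to 719 bp with a median of 60 bp and quartiles of 55 and 71 bp. The other coding promoter clusters comprised 8154 of 11 to 50 bp (median 29 bp) and 3969 of at most 10 bp (median 4 bp), here called intermediate and sharp. Widths had no gap at the threshold. There were 118 members at 51 bp, of which 3300002I08Rik, Aggf1 and Arf5 are the first by name, and 121 clusters just outside at 50 bp, of which 0610010K14Rik, 1110059E24Rik and 2310033P09Rik are the first. The whole tag cluster of a member was wider still, with a median of 95 bp, and the interquantile regions made up 64.3% of the summed length of these clusters.

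**Figure D1:**
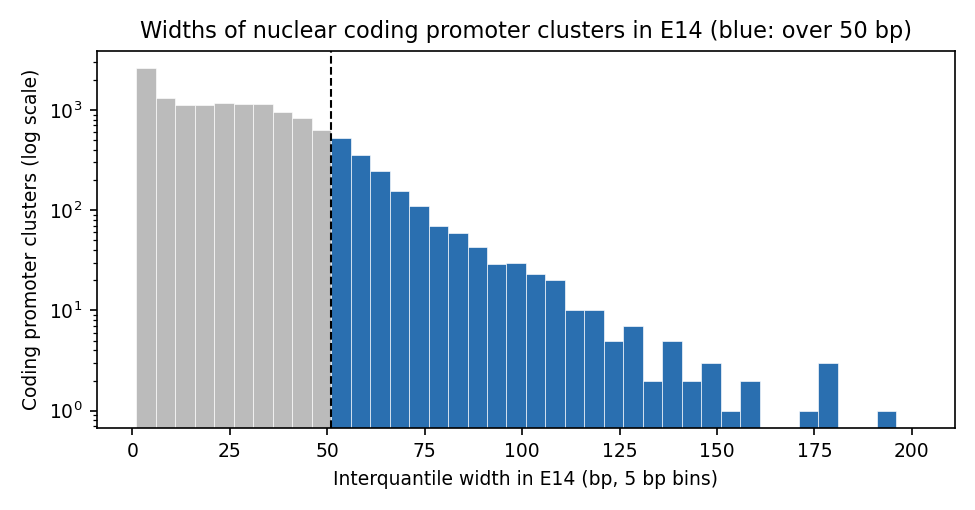
Number of nuclear coding promoter clusters in E14 (log scale) by interquantile width in 5 bp bins, the widest being 192 bp. Blue bars are the members over 50 bp, and the dashed line at 51 bp shows that the threshold cuts a continuous tail.

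The very widest members were mitochondrial. The mitochondrial genome, which is transcribed by its own polymerase and whose transcripts carry no cap of the kind made in the nucleus, gave 13 members in 6 genes out of 31 coding promoter clusters. The widest was that of mt-Nd6 with 719 bp in E14, 708 bp in A1 and 684 bp in C7. The cluster of mt-Nd2 was 504 bp wide in every line, and that of mt-Co1 269 bp in every line. The widest cluster of mt-Nd5 had widths of 315, 306 and 359 bp in E14, A1 and C7. That of mt-Nd1 had 304, 304 and 305 bp, and that of mt-Cytb 254, 263 and 255 bp. The widest mt-Nd5 cluster ended upstream of the annotated gene start, with its dominant TSS at -443 bp from that start. The other mt-Nd5 member, with its dominant TSS 1 bp downstream of the start, was 68, 68 and 64 bp wide. The widest mt-Cytb cluster lay inside the gene, with its dominant TSS 500 bp downstream of the start. All these genes encode subunits of the respiratory chain. Of the 13 mitochondrial members, 12 had the same dominant TSS in A1 and 13 in C7. What these clusters stem from was not tested, and without them the 10 shares of members given below for width and dominant TSS in the clones changed by at most 0.141 percentage points.

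Among the 1721 nuclear members, in 1680 genes, 95 were over 100 bp wide. The widest was Ptges3, which encodes the Hsp90 co-chaperone p23, with 192 bp in E14, 192 bp in A1 and 169 bp in C7. Akip1, which encodes a protein that binds protein kinase A, followed with 180, 220 and 208 bp, and was wider in both clones. Ssr2, a subunit of the translocon-associated complex of the endoplasmic reticulum, had 178, 178 and 142 bp, and Mthfd1, an enzyme of folate metabolism, had 176 bp in each line. 

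The following nuclear members were named after their values had been seen, since mitochondrial clusters took 6 of the 10 widest places. Carnmt1, a methyltransferase of carnosine, had 171, 166 and 164 bp in E14, A1 and C7. Cnot10, another subunit of the CCR4-NOT complex, had 156, 159 and 153 bp, and Fam104a had 156, 173 and 173 bp. Ppp1r15b, which directs a phosphatase to the translation factor eIF2, had 154, 155 and 154 bp. Sept7, a septin of the cytoskeleton, had 149, 143 and 150 bp, and Sltm, an RNA-binding protein, had 149, 148 and 148 bp. Of these 10 nuclear members, 8 kept the same dominant TSS in both clones. The exceptions were Ptges3 and Ssr2 in C7, where it lay 164 and 155 bp downstream of that in E14 while A1 kept the base of E14.

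Wide promoters started slightly downstream of the annotated gene start. Their dominant TSS lay a median of 49 bp downstream (quartiles 14 and 103 bp), against 33 bp for intermediate and 39 bp for sharp clusters. It lay upstream of the annotated start in 12.8% of members, 15.9% of intermediate and 24.5% of sharp clusters. Within the region it had no preferred end: the median place was 0.508 of the way from the 5′ edge to the 3′ edge, with 34% of members in the 5′-most and 34.8% in the 3′-most of 3 equal parts. The dominant TSS was the first base of the region in 8.65% and the last base in 12.6% of members.

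A wide cluster was more often the only promoter cluster of its gene. This was so for 1066 members (61.5%), against 56% of intermediate and 30% of sharp clusters. Another cluster on the same strand within 500 bp was seen at 39.3%, 44.9% and 70.5% of the 3 classes. Clusters are joined or split by distance when they are called, so a wide cluster and a set of narrow neighbours are not independent outcomes. An antisense cluster within 500 bp upstream was found at 28.6% of members, 24.5% of intermediate and 19% of sharp clusters, and a coding gene start on the opposite strand within 1000 bp at 19.7%, 19.4% and 14.2%. Annotated transcript starts within 50 bp of the dominant TSS numbered 1.93 on average at members, 2.01 at intermediate and 1.24 at sharp clusters. The annotation thus held no more starts at members than at intermediate clusters in a window of fixed size. The genes of members had a median length of 28472 bp, against 23955 bp and 22695 bp.

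Several members could lie at 1 gene. Of the 1686 genes, 1643 had 1 member, 40 had 2 and 3 had more. Gabpa, which encodes an ETS-family transcription factor subunit, had 3 members of 62, 69 and 60 bp in E14, of which the second was 40 bp wide in A1 and 75 bp in C7 while the others stayed within 3 bp. Vars, the valyl-tRNA synthetase gene, had 3 members of 62, 81 and 90 bp, which were 62, 81 and 90 bp in A1 and 62, 81 and 86 bp in C7. The gene mt-Cytb had 5. Among the genes with 2 were Acp6, Adipor1, C2cd5, Ccny, Cdca2, Cds2, Cep57, Cep83, Dag1, Ddx31, Epb41l4a, Fam208b, Fkbp15, Hnrnpu, Hspe1, Ifitm3, Igf2bp1, Jam2, Mkrn1, Paics, Pds5a, Peak1, Plekhj1, Polr3d, Ppp1cb, Prpf19, Rab6a, Resf1, Rheb, Ric8b, S100pbp, Sdf4, Sh3glb1, Smarcad1, Snx3, Taf5l, mt-Co1, mt-Nd1 and mt-Nd5.

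Initiator steps were seen at most dominant TSSs, and slightly more often in wide than in narrow clusters. Bases could be read at 94.5% of members, 93.3% of intermediate and 87.6% of sharp clusters, from RefSeq promoter windows and GENCODE exons, which gave the same base wherever both held a position. The dominant TSS was a purine after a pyrimidine in 85.2% of members (83.4 to 86.8%), 82.1% of intermediate clusters (81.2 to 83%) and 73.8% of sharp clusters (72.3 to 75.2%). By step, 33.7% of members started at CA, 22.3% at CG, 18.8% at TG and 10.3% at TA, and CA was found at 33.8% of intermediate and 36.3% of sharp clusters. CG was found at 21.7% of intermediate and 15.3% of sharp clusters. Over whole interquantile regions, readable for 1545 members, a median of 23.5% of positions were pyrimidine-purine steps and 3.92% were CA, so dominant bases were at these steps more often than the other bases of the same region.

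TATAAA was rare at wide promoters. Between 40 and 21 bases upstream of the dominant TSS it was found on the coding strand at 8 of 1530 members with readable bases (0.523%, interval 0.265 to 1.03%), at 11 of 6962 intermediate clusters (0.158%) and at 161 of 3230 sharp clusters (4.98%, interval 4.29 to 5.79%). The 8 members were Abcc5, Acp6, Fam25c, Hmgcs1, Mt1, Ncbp1, Oxnad1 and Rbmx, named after their values had been seen, and in each TATAAA began 29 to 32 bases upstream. They include Hmgcs1, an enzyme of sterol synthesis, and Mt1, a metallothionein induced by metals. Their E14 widths ran from 53 bp (Ncbp1) to 108 bp (Fam25c), and 6 of the 8 had the same dominant TSS in all 3 lines. Mean GC content from 30 bases before to 30 after the dominant TSS was 67% at members, 67.1% at intermediate and 66% at sharp clusters, with 6.27, 6.13 and 5.82 CpG sites on average in those 61 bases.

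In promoter windows of 300 bases (250 before and 50 after a RefSeq start), members were rich in CpG. A window was found for 81.7% of members and 80.8% of intermediate clusters. For sharp clusters the share with a window was 78.6%, which is below 80%, so this check is void for them. Median GC content was 62.7% in members, 61.7% in intermediate clusters and 52.7% in all 32817 RefSeq windows of the table, and the median ratio of observed to expected CpG was 0.827, 0.805 and 0.383. The GC box GGGCGG was held on either strand by 74.6% of member windows, 69.8% of intermediate and 35.6% of all windows. The ETS core CCGGAA was held by 33.5%, 34.8% and 14.9%, and CCAAT by 41%, 40.4% and 37.4%. GCGCATGC, as bound by NRF1, was held by 8.34%, 6.99% and 2.71%, and ATGGCGGC, as bound by YY1, by 4.6%, 6.68% and 2.24%. TATAAA anywhere in the window was held by 4.89%, 5.34% and 13.6%. No motif searched contains another, and a match describes letters only.

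Genes with a wide promoter were described by 22 lists of gene function. Of all coding genes with a promoter cluster in E14, 17.3% had a member, and since width chose the members, the shares below are a description with no test. The share was highest for the list named core pluripotency factors (6 of 18 genes, 33.3%, interval 16.3 to 56.3%), chromatin remodelers (10 of 32, 31.3%, interval 18 to 48.6%), chaperones (19 of 70, 27.1%, interval 18.1 to 38.5%), translation factors and tRNA synthetases (25 of 96, 26%, interval 18.3 to 35.6%) and spliceosome and SR proteins (15 of 59, 25.4%, interval 16.1 to 37.8%). None of the 6 pluripotency genes was Pou5f1, Sox2, Nanog or Klf4. The intervals of the pluripotency and the spliceosome lists hold the 17.3% of all coding genes. The share was lowest for developmental transcription factors (0 of 26, interval 0 to 12.9%), replication-dependent histones (2 of 58, 3.45%, interval 0.951 to 11.7%), mitochondrial ribosomal proteins (5 of 69, 7.25%, interval 3.13 to 15.9%) and cytosolic ribosomal proteins (7 of 79, 8.86%, interval 4.36 to 17.2%). Of 175 developmental transcription factors listed, only those 26 had a promoter cluster. Replication-dependent histone genes had a median width of their widest cluster of 5 bp and cytosolic ribosomal protein genes of 22 bp, beside 31 bp over all coding genes.

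**Figure D2:**
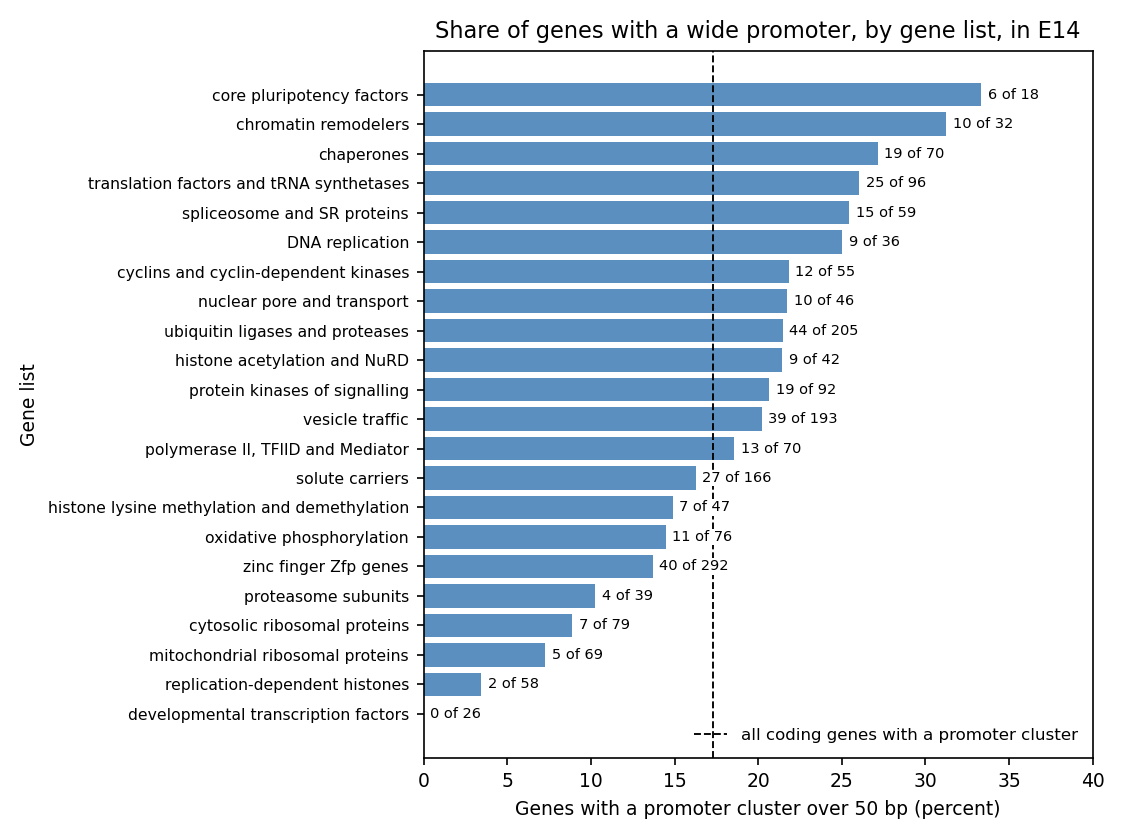
Percent of coding genes with a promoter cluster in E14 whose widest cluster is over 50 bp, for 22 gene lists, with the number of genes beside each bar. The dashed line is the 17.3% of all coding genes, and shares run from 0 of 26 developmental transcription factors to 6 of 18 core pluripotency factors.

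The pluripotency genes with a member were few but included markers of the mESC state. The widest cluster of Dppa5a, a marker of pluripotent cells, was 120 bp in E14, 112 bp in A1 and 106 bp in C7. Its dominant TSS in E14 lay 397 bp downstream of the annotated gene start. The Dppa5a cluster nearest that start, 23 bp downstream, was sharp, with 8 bp in all 3 lines. The widest cluster of Utf1, a chromatin factor of undifferentiated cells, was 112, 112 and 113 bp. Zfp42, also known as Rex1, had a member of 71 bp in all 3 lines, and Tdgf1, a co-receptor for Nodal, had one of 60, 60 and 59 bp. The other 2 genes of the list with a member were Klf2, with 62 bp in each line, and Stat3, with 76, 78 and 100 bp, both transcription factors. Of the 10 marker genes, 6 had promoter clusters but no member. The widest cluster of Pou5f1 was 31 bp in E14, that of Sox2 27 bp, that of Klf4 9 bp, that of Tfcp2l1 6 bp, that of Nanog 2 bp, and that of Lin28a 43 bp. Of the other cell type markers, the widest cluster of Neurod1 was 22 bp and that of Cd34 4 bp.

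Among genes of chromatin and transcription, the widest members were about 100 bp. Ino80b, a subunit of the INO80 remodeler, had 108, 92 and 99 bp in E14, A1 and C7, and Smarcad1, a remodeler ATPase, had 101 bp in each line. Histone acetylation and NuRD genes (9 of 42) were led by Rbbp4, a histone-binding subunit, with 107 bp in each line, and by Mta2, a core NuRD subunit, with 80 bp in E14 and 105 bp in both clones. The list named histone lysine methylation and demethylation (7 of 47) was led by Setd3, a SET domain methyltransferase, with 106, 107 and 103 bp. Whether Setd3 acts on histones was not examined here. Next in that list was Suv39h2, which methylates lysine 9 of histone H3, with 105, 86 and 86 bp. Of polymerase II, TFIID and Mediator genes (13 of 70), Taf1, the largest TFIID subunit, had 100, 102 and 102 bp, and Polr2h, a shared polymerase subunit, had 82, 88 and 82 bp. Of Zfp genes (40 of 292), Zfp148 had 93, 94 and 94 bp and Zfp512 82, 82 and 74 bp.

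Among genes of RNA and protein synthesis, the wider of the 2 members of Hnrnpu, a nuclear RNA-binding protein, had 109, 101 and 101 bp. Its dominant TSS in E14 lay 491 bp downstream of the annotated gene start. Gspt1, a translation release factor, had 103, 107 and 106 bp, and Eif2s2, the beta subunit of eIF2, had 102 bp in each line. Dnajb1, a co-chaperone, had 79, 79 and 78 bp, and Dnajc21, another of its family, 79, 76 and 85 bp. The few wide ribosomal protein genes were led by Rpl24 with 71, 62 and 61 bp and Rpl29 with 68, 69 and 69 bp, and the mitochondrial ones by Mrps16 with 129, 125 and 124 bp and Mrpl17 with 78, 79 and 77 bp.

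The lists of other housekeeping functions lay closer to 17.3%. Ubiquitin ligases and proteases (44 of 205) were led by Ube2d3, a ubiquitin-conjugating enzyme, with 129, 127 and 127 bp, and Herc4, a ligase, with 126, 125 and 130 bp. Vesicle traffic genes (39 of 193) were led by Arl2bp with 119, 121 and 125 bp and the GTPase gene Arf4 with 101, 93 and 94 bp. Nuclear transport genes (10 of 46) were led by the exportin genes Xpo1 with 103, 105 and 82 bp and Xpo5 with 82, 83 and 85 bp. Protein kinases of signalling (19 of 92) were led by Map3k2 with 119 bp and Stk38 with 106 bp, both the same in each line. Solute carriers (27 of 166) were led by the zinc transporter Slc39a7 with 126 bp in each line and the mitochondrial carrier Slc25a36 with 110, 110 and 108 bp.

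In the cell cycle and energy lists, DNA replication genes (9 of 36) were led by Pole4, a subunit of polymerase epsilon, with 107, 104 and 107 bp, and Gins3, of the replicative helicase, with 66, 65 and 65 bp. Cyclins and cyclin-dependent kinases (12 of 55) were led by Cdk4 with 77, 71 and 67 bp and Cdk7 with 71, 73 and 74 bp. Proteasome subunits (4 of 39) were led by Psma7 with 67, 67 and 58 bp and Psmd14 with 67, 71 and 67 bp. Nuclear genes of oxidative phosphorylation (11 of 76) were led by Ndufb7 with 79 bp and Atp5g1 with 70 bp in each line. The 2 histone genes were Hist1h1b with 63 bp and Hist1h1e with 54 bp in each line, which encode linker histones H1. In E14 the dominant TSSs of these clusters lay inside the genes, 176 and 459 bp downstream of the annotated starts.

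Wide promoters stayed wide in both clones. All 1734 members overlapped a cluster in A1 and in C7, and 1610 (92.8%, interval 91.5 to 94%) were over 50 bp in A1 and 1625 (93.7%, interval 92.5 to 94.8%) in C7. In 1554 members the width was over 50 bp in all 3 lines. The median width was 60 bp in E14 and 61 bp in each clone. By E14 width, 87.6% of the 887 members of 51 to 60 bp were still over 50 bp in A1 and 88.4% in C7, against 97.9% and 99.1% of the 584 members of 61 to 80 bp and 99.2% and 99.6% of the 263 wider ones. Most that fell under the threshold did so by a few bp: of 124 such members in A1, 92 were over 40 bp, and of 109 in C7, 84 were.

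At a step of over 10 bp, the clones differed from E14 in member width about as often as from each other. Over 10 bp narrower were 89 members (5.13%, interval 4.19 to 6.27%) in A1 and 92 (5.31%, interval 4.35 to 6.46%) in C7, beside 1.81% and 1.77% of all coding promoter clusters. Over 10 bp wider were 94 members (5.42%, interval 4.45 to 6.59%) in A1 and 93 (5.36%, interval 4.4 to 6.53%) in C7, beside 3.79% and 3.54% of all. Set against A1, C7 was over 10 bp narrower in 93 members (5.36%) and over 10 bp wider in 88 (5.07%), beside 2.85% and 2.58% of all. A step of 10 bp is a smaller part of a wide region than of a narrow one, and sharp clusters cannot lose 10 bp, so the members' shares are not comparable with those of narrower classes as shares of width. At any size of difference, 38.4% of members were wider and 24.6% narrower in A1, 36.4% were wider and 26.6% narrower in C7, and in C7 against A1 31.8% were wider and 33.3% narrower. Over all coding promoter clusters, 28.2% were wider and 13.6% narrower in A1, 26.4% and 13.3% in C7, and 20.5% and 21.9% in C7 against A1. At any size, both clones were thus more often wider than narrower against E14, in members and over all, while C7 against A1 was not.

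**Figure D3:**
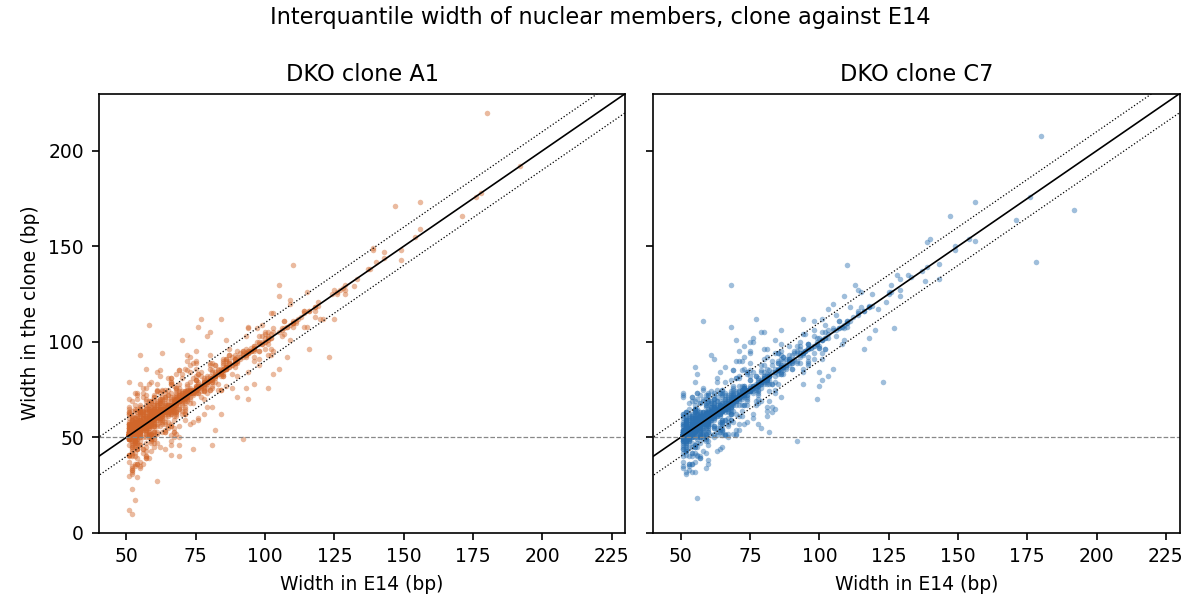
Interquantile width in clone A1 (left) and clone C7 (right) against that in E14, each dot being 1 of the 1721 nuclear members. The solid line marks equal width, the dotted lines 10 bp more or less and the dashed line 50 bp. Most dots lie between the dotted lines, and those under 50 bp are mainly members at 51 to 60 bp in E14.

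Since a member had to be over 50 bp in E14, a change of width in the clones is partly set by that choice. The same rule applied to the clones gave 1869 members in A1 and 1884 in C7. Of those chosen in A1, 86.1% were over 50 bp in E14, 1.66% were over 10 bp narrower in A1 than in E14 and 11.3% were over 10 bp wider. Of those chosen in C7, 86.2% were over 50 bp in E14, 2.65% were narrower and 11.1% wider. The 260 clusters over 50 bp in A1 but not in E14 had a median E14 width of 46 bp. So did the 260 over 50 bp in C7 but not in E14. The other clone was not considered in either count, so a cluster can be in both sets. Whether the larger number in the clones exceeds the spread between libraries could not be tested, as libraries were merged.

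The largest gains of width shared by both clones, ranked by the smaller gain, were at Mt1, Capn15, Pip4k2b, Josd2 and Crem. Mt1 was 58 bp wide in E14, 109 bp in A1 and 111 bp in C7, inside a tag cluster of 257 bp, and its dominant TSS was the same base in all 3 lines. Capn15, a calpain protease, had 77 bp in E14 and 112 bp in both clones. Pip4k2b, a kinase of phosphoinositides, had 55, 93 and 87 bp, and Josd2, a deubiquitinase, had 70, 101 and 101 bp. Crem, a transcription factor that responds to cyclic AMP, had 110, 140 and 140 bp, and its dominant TSS lay 76 bp downstream in A1 and 99 bp downstream in C7.

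The largest shared losses were at Ppib, Aifm1, Kazn, Colec12 and Scaf11. Ppib, which encodes cyclophilin B, was 92 bp wide in E14, 49 bp in A1 and 48 bp in C7, and so fell under the threshold in both clones. Aifm1, a mitochondrial protein that acts in cell death, had 123, 92 and 79 bp, and Kazn 82, 54 and 53 bp. Colec12, a collectin receptor, had 52, 31 and 31 bp, and Scaf11, a factor linked to splicing, 101, 76 and 80 bp. In Ppib, Aifm1 and Scaf11 the dominant TSS was the same base in all 3 lines, in Kazn it lay 1 bp upstream in C7, and in Colec12 it lay 30 bp downstream in A1.

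The dominant TSS stayed at the same base in most members. It was the same in A1 in 1391 members (80.2%, interval 78.3 to 82%) and in C7 in 1411 (81.4%, interval 79.5 to 83.1%), and in A1 and C7 it was the same in 1372 (79.1%, interval 77.1 to 81%). It was at another base in 343 members (19.8%) in A1 and 323 (18.6%) in C7, beside 20.8% and 18.5% of all coding promoter clusters, and in C7 against A1 in 362 (20.9%) beside 21.6%. Wide promoters thus changed their dominant base about as often as promoters in general. In 1252 members (72.2%) it was 1 base in all 3 lines, beside 71% of the 13766 coding promoter clusters matched in both clones. In 256 members (14.8%) both the width and that base were the same in all 3, beside 29.9% of all.

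A dominant base can move farther in a wide region than in a narrow one, so the distances follow in part from the rule that chose the members and are a description. Where the base of a member differed, the median distance was 25 bp in A1 and 24 bp in C7, against 11 bp in both for intermediate and 3 bp in both for sharp clusters. As a share of the E14 width, the median distance was 39.3% and 39.6% for members, 46.2% and 47.8% for intermediate and 66.7% in both clones for sharp clusters. Over 10 bp away were 259 members (14.9%, interval 13.3 to 16.7%) in A1 and 237 (13.7%, interval 12.1 to 15.4%) in C7, beside 8.36% and 7.59% of all clusters, and 260 (15%) in C7 against A1 beside 8.8%. Intermediate clusters gave 11% and 9.92%, and 11.7% for C7 against A1. Of the members moved by over 10 bp, 248 of 259 in A1 and 227 of 237 in C7 had their new dominant base inside the interquantile region of E14 (95.8% in both), beside 97.3% and 97.7% of the moved clusters over all. The new base lay downstream in 142 and upstream in 117 members in A1, and downstream in 156 and upstream in 81 in C7. Downstream bases were thus 54.8% and 65.8% of the members' shifts over 10 bp, beside 53.5% and 59.9% of those of all clusters (4.47% of all clusters moved downstream and 3.89% upstream in A1, and 4.55% and 3.04% in C7). Set against A1, C7 had the base downstream in 154 members (8.88%) and upstream in 106 (6.11%), beside 4.83% and 3.97% of all clusters. More shifts were thus downstream than upstream between the clones too.

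**Figure D4:**
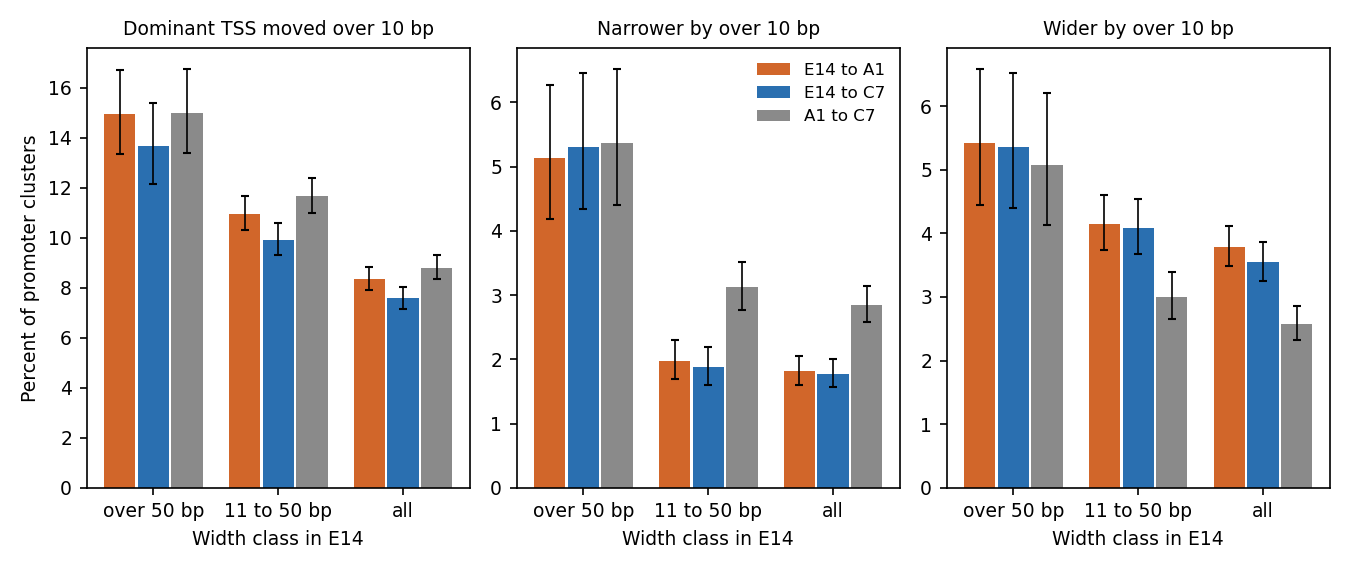
Percent of coding promoter clusters whose dominant TSS moved by over 10 bp (left), or whose interquantile region was over 10 bp narrower (middle) or wider (right), by width class in E14, for A1 against E14, C7 against E14 and C7 against A1. Error bars are 95% Wilson intervals (counting error only), and for members over 50 bp those of the 3 pairs of lines overlap in each panel.

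The largest downstream shifts shared by both clones were at Klhdc3, Erp29, Mipol1, Eif2s2 and Wdr6. The dominant TSS of Klhdc3, a substrate receptor of a ubiquitin ligase, lay 113 bp downstream in both clones, at the far end of a region that was 118 bp wide in each line. Erp29, a chaperone of the endoplasmic reticulum, had its dominant TSS 106 bp downstream in both clones, in a region of 140, 142 and 154 bp in E14, A1 and C7. That of Mipol1 lay 95 bp downstream in both, in a region of 105, 105 and 106 bp. In Eif2s2 it lay 88 bp downstream in both clones in a region of 102 bp, and in Wdr6 87 bp downstream in both, in regions of 107, 111 and 111 bp. At all 5 genes both clones had the same new base.

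The largest upstream shifts shared by both clones were at Btbd9 (71 bp in each clone), Igf2r (58 bp), Gpr180 (55 bp), Pcmtd1 and Zfp607b (both 49 bp). Igf2r encodes the imprinted receptor that clears insulin-like growth factor 2, and its region was 72, 70 and 71 bp wide in E14, A1 and C7. The region of Btbd9 was 71, 71 and 72 bp wide, that of Gpr180 60, 64 and 60 bp, that of Zfp607b 51 bp in each line, and that of Pcmtd1 147, 171 and 166 bp. Here too both clones had the same new base, and the width of the region changed by at most 4 bp except at Pcmtd1. At Btbd9 the new base lay 1 bp outside the regions of E14 and A1. Of these 10 genes, 6 had a pyrimidine-purine step at the dominant base in every line: CA for Igf2r in all 3 lines, CA in E14 and TG in the clones for Klhdc3 and Btbd9, TG and then CG for Mipol1, CG and then TA for Gpr180, and CG and then CA for Pcmtd1. Erp29 (CA in E14, TC in the clones) and Eif2s2 (TG and then GA) had it in E14 alone, Wdr6 (GG and then TG) in the clones alone, and Zfp607b (AC and then AG) in no line.

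**Figure D5:**
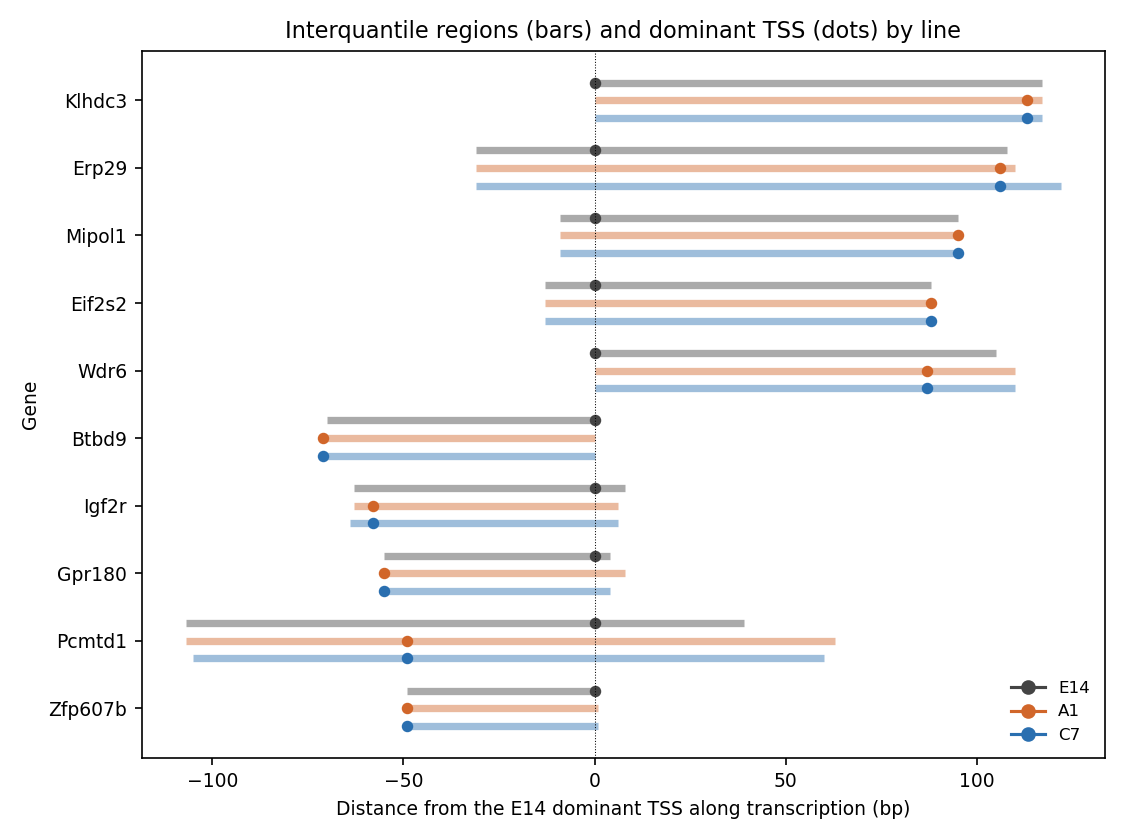
Interquantile regions (bars) and dominant TSSs (dots) in E14, A1 and C7 for the 10 members with the largest shifts shared by both clones, in bp along transcription from the E14 dominant TSS at 0. Bars of a gene end within 15 bp of each other in all lines except at the 3′ end of Pcmtd1, while dots of A1 and C7 lie 87 to 113 bp downstream in the upper 5 genes and 49 to 71 bp upstream in the lower 5.

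Initiator steps at the bases that members moved to were as common as before in C7 and less common in A1. Of members moved by over 10 bp with readable bases at both positions, 208 of 241 (86.3%) had a pyrimidine-purine step at the E14 base and 184 (76.3%) at the A1 base, while for C7 the numbers were 176 of 216 (81.5%) and 179 (82.9%). CA steps were 73 and 76 for A1 and 49 and 71 for C7. Each dominant base in E14 is the highest of its cluster by construction in E14 and need not be so in the clone, and with 1 set of clusters per line these counts have no replicate error. Over all members, a pyrimidine-purine step was seen at 83.5% of dominant bases in A1 and 85.2% in C7, beside 85.2% in E14.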

How the data were processed

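CAGE-seq was performed by the authors on nuclear RNA from E14 (3 libraries), DKO A1 (2) and DKO C7 (3). Per the submitters' notes and the study's methods, reads were mapped to mm10 with STAR 2.4.2a and handled with SAMtools and bedtools (1.3 and 2.17.0 in the notes, while the methods name another bedtools version), unique alignments were kept, replicates of a line were merged, start counts were normalized by a power law, and tag clusters with quantiles 0.1 to 0.9 were called with CAGEr. The minimum signal of a cluster is not given in the sources used here. Deposited columns used were cluster bounds, dominant TSS and blocks, of which the longest is the interquantile region. Positions are 1-based.

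Coding gene starts (21951 genes) came from GENCODE M21. Clusters of lines were matched by the largest overlap of at least 1 bp on 1 strand. Promoter sequences were RefSeq's (GRCm38.p6), matched by symbol or else by the nearest start within 500 bp, with exon bases from GENCODE. Sequences to print were chosen with chromosome 18 and the mitochondrial genome left out. Reading and matching were tested on simulated clusters with shortened regions and moved dominant TSSs. These kept the outer bounds of E14 in every line, so matching under changed bounds, and widened regions, were not covered. Python 3.11.15, NumPy 2.4.6, SciPy 1.17.1 and Matplotlib 3.10.9 were used. No test was run. Members and gene lists were chosen with earlier results of these data known. Genes named were the 10 widest members, the 5 largest shared width gains, losses and shifts in each direction, the widest 2 of each gene list, 3 clusters on either side of the threshold, genes with several members and the markers, of which some are not reported here. Alternatives were other windows, width thresholds, steps, overlaps and members chosen in the clones.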

Additional observations from a re-analysis of the deposited data

Results flagged for a closer look

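Some members moved in opposite directions in the 2 clones. The width was over 10 bp greater in 1 clone and over 10 bp smaller in the other in 7 members (Iqgap2, Magt1, Mgme1, Ngly1, Palb2, Slc46a3 and Vapb), or 0.404%, beside 14 of the 13766 coding promoter clusters matched in both clones (0.102%). At Palb2, which encodes a DNA repair protein, it was 55 bp in E14, 34 bp in A1 and 67 bp in C7. The dominant TSS moved by over 10 bp upstream in 1 clone and downstream in the other in 12 members (Cnpy2, Commd7, Fmn2, Hibadh, Kyat3, Npepl1, Pithd1, Ppp2cb, Pyroxd1, Setd3, Tpd52l1 and Trp53i11), or 0.692%, beside 17 of all (0.123%). At Setd3 it lay 57 bp downstream in A1 and 35 bp upstream in C7 (a shift of -35 bp along transcription). These genes were named after their values had been seen, and the differences between clones were not tested. Sharp clusters cannot lose over 10 bp of width and rarely moved by over 10 bp (4 of 3898 in C7 against A1). Both gaps to the share of all clusters thus follow in part from the rule that chose the members.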

How the results depend on the processing

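The number of members was 3199 with a width over 40 bp, 333 with over 75 bp and 5691 when the whole tag cluster had to be over 50 bp. Other windows, any coding transcript start, and the rule in either clone kept it within 1.5 times. The share that stayed over its own threshold was 94.6% in A1 and 94.8% in C7 for members over 40 bp and 91% in C7 for those over 75 bp, and of members chosen in the clone 86.1% (A1) and 86.2% (C7) were over 50 bp in E14. For members over 75 bp, 83.2% kept the dominant TSS in A1. With a step of 5 bp, 16.8% (A1) and 15.6% (C7) had moved, 10.3% and 11.1% were narrower and 11.5% and 11.1% wider. With 20 bp, 11.2% and 10.9% had moved, 1.15% and 1.1% were narrower and 1.1% and 1.33% wider. Narrower by over 10 bp were 4.03% (A1) of members over 40 bp, and 6.61% (A1) and 9.01% (C7) of those over 75 bp, of which 8.41% were wider in C7. Members chosen in the clone gave 1.66% (A1) and 2.65% (C7) narrower and 11.3% and 11.1% wider by over 10 bp. The near balance of narrower and wider members thus holds only for the choice in E14 and for steps of 5, 10 or 20 bp. At any size of difference, members chosen in E14 were more often wider than narrower in both clones. Windows that hold the dominant TSS existed for 50.1% of members, so that check is void; there, median GC content was 63.7%, the CpG ratio 0.85 and the share with GGGCGG 77.7%. A reciprocal overlap of 50%, clusters near 1 coding gene only, and leaving out the mitochondrial genome (added after the data were seen) kept all 12 shares and medians in the clones within the intervals of the values given. With a window of 100 bp, the numbers of cytosolic ribosomal protein, histone and translation factor genes with a member went from 7, 2 and 25 to 2, 0 and 15. Beside this, the number of all members went from 1734 to 1265. The share of all coding genes with a member is not given for that window, so these counts are not set against it. No paired analysis was possible because the libraries of each line were merged before deposit. For the same reason no library could be left out, and neither the depth behind a cluster nor the spread between libraries could be read.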
